A study of Mus musculus with 21 samples.

Results

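The comparison of untrained muscle at 6 h after an exhaustive run with sedentary muscle comprised every region listed in the deposited table for that contrast, 8360 regions in all, out of 41411 distinct regions over the tables of the series with calls. The assay was ATAC-seq, a measure of chromatin accessibility in which a transposase cuts and tags open DNA, run on nuclei that carry PCM1, a protein at the surface of muscle fibre nuclei, taken from the quadriceps with magnetic beads. Male wild-type C57/Bl6 mice were 22 to 26 weeks old at sacrifice. Untrained mice had no training, were run to exhaustion on a treadmill and were taken 6 h later (3 samples), and sedentary mice did not exercise (3 samples). Mice were accustomed to the treadmill before the tests, and whether the sedentary mice were too is not given in the sources used here. The other exercised groups of the series were untrained mice at 0 and 72 h and trained mice at 0, 6 and 72 h, with 3 samples each. Trained mice had 12 weeks of endurance training in cages with running wheels. The time of day of sacrifice of each group is not given in the sources used here, so the run and the time of day cannot be told apart.

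The table holds the mean of each group and no value per sample. No spread between replicates, no error and no test of its own can therefore be given here, the depth of each sample is unknown, and a region counts as changed because it passed the authors' comparison at a false discovery rate (FDR) of 0.05. Whether each of the 3 samples per group stands for its own animal is not given in the sources used here. The level of a region is given as normalised reads, which is 2 to the power of the deposited group mean, and the change is the difference of the 2 deposited log2 means, untrained 6 h minus sedentary. A positive change is an opening. More open chromatin per nucleus and more nuclei with that region open cannot be told apart. Each region is named for whichever protein-coding gene starts closest to it on GRCm39, at any distance, which does not show that the region acts on that gene.

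Muscle fibres answer a bout of exercise with a wave of transcription that begins with immediate early genes, among them the Fos, Jun and Atf families. Their products pair as AP-1, a dimer that binds the short palindrome TGANTCA, mostly in enhancers far from genes, and that can recruit chromatin remodellers there. Fibres under load also induce proteins of the Z-disc, the plate that anchors thin filaments, and proteins of the costamere, which ties the Z-disc to the surrounding matrix. The circadian clock of muscle, driven by Bmal1 and held in check by Per, Cry and Rev-erb proteins, controls many genes of fuel use.

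The sequences below are shown because opened and closed regions differed in the short words they held. Each is the central 150 bases of a region on GRCm39, read 5′ to 3′ on the plus strand. The first 4 are opened regions that hold TGANTCA in this stretch and were picked for that, and the capitals mark it. Lmcd1 is distal, Acsl1 is distal with 2 matches, and Pgm2 and Myoz2 are promoters.
Lmcd1 (chr6:112232065-112232214): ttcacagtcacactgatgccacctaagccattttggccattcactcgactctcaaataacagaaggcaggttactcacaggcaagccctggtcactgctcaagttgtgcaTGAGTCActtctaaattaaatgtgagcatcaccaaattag
Acsl1 (chr8:46882994-46883143): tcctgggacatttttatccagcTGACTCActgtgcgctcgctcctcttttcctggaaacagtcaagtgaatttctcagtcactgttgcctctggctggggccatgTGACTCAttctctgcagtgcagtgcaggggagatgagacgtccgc
Pgm2 (chr5:64269855-64270004): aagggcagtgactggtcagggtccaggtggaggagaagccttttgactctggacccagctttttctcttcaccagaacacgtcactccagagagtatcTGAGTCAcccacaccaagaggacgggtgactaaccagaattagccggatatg
Myoz2 (chr3:122828380-122828529): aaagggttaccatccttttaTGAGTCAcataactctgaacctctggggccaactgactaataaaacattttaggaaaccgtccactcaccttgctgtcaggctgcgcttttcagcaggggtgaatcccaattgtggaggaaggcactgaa
The opened promoter of Atf3 is shown as an opened region without a match.
Atf3 (chr1:190950074-190950223): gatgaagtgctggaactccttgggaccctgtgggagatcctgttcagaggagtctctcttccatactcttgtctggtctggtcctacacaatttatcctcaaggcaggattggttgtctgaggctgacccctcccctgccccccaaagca
The following 4 are closed regions with no TGANTCA in the stretch shown. Capitals mark CAAGGTCA (TGACCTTG on the other strand), the extended half-site that estrogen-related receptors bind, and CAGCTG, an E-box bound by myogenic factors. The first 3 are distal or exonic and the last is a promoter. These examples do not show how common the words are, since CAAGGTCA was in 5.85% and CAGCTG in 30.8% of closed windows.
Zbtb20 (chr16:43430911-43431060): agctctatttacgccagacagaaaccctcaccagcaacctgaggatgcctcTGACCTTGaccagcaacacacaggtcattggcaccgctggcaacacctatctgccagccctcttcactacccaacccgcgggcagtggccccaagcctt
Neo1 (chr9:58978643-58978792): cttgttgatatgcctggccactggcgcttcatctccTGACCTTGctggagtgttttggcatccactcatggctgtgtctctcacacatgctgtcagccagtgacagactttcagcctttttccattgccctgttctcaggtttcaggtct
Fbxl4 (chr4:22337120-22337269): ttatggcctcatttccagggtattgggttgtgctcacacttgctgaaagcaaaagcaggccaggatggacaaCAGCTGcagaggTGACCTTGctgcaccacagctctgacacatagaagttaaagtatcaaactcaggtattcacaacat
Elmo2 (chr2:165138553-165138702): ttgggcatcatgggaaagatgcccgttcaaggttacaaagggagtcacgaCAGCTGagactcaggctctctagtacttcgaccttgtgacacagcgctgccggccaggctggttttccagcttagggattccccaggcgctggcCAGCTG

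Opening and closing were about equally frequent 6 h after the run. Of 63953 regions tested, 13.1% passed, with 4139 opened regions (6.47%) and 4221 closed regions (6.60%). The opened regions changed more. Their median change was 1.18, with a range of 0.49 to 4.58, while closed regions had a median of -0.88 and a range of -2.12 to -0.40. A change of at least 1, which is a 2-fold difference, was reached by 2710 opened regions (65.5%) and 1290 closed regions (30.6%), and a change of at least 2 by 498 opened and 2 closed regions. Opened regions had low signal at rest, with medians of 414 normalised reads in untrained muscle at 6 h and 169 in sedentary muscle. Closed regions had medians of 254 normalised reads in untrained muscle at 6 h and 477 in sedentary muscle. At low levels a region passes the authors' test only with a large change, so the larger changes among weakly open regions are partly set by the threshold. Every chromosome carried both kinds, and the opened share per chromosome lay between 44.6% and 53.3%.

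**Figure D1:**
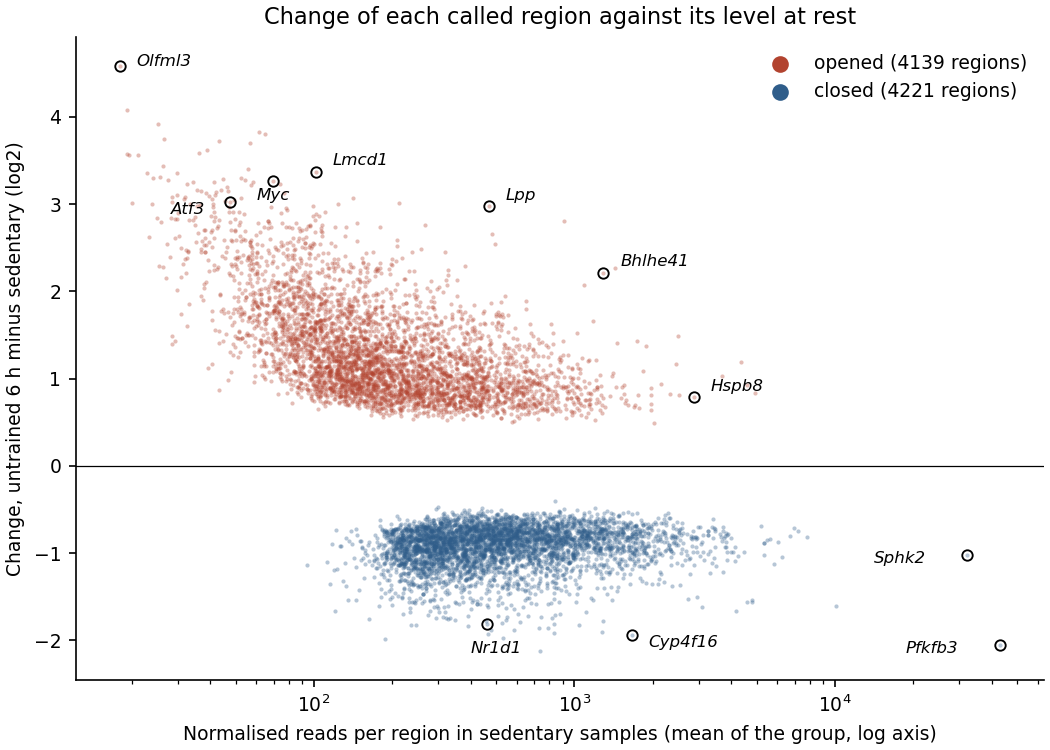
Each point is a called region, with its mean normalised reads in sedentary muscle on the x axis (log scale) and its change, untrained 6 h minus sedentary, on the y axis (log2). The 4139 opened regions (red) reach 4.58 and are largest where sedentary signal was low, and the 4221 closed regions (blue) reach -2.12. Circles mark regions named in the text.

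Both kinds of region lay mostly away from promoters. Regions within 1 kb of a protein-coding start site made up 4.47% of opened (185) and 5.78% of closed regions (244), against 17.7% of all distinct regions in the tables of the series. Introns held 54.8% of opened and 55.5% of closed regions, and intergenic DNA held 37.3% and 34.2%. The median distance to the nearest start site was 23668 bp for opened and 22060 bp for closed regions. The regions fell to 4417 genes, of which 1767 had only opened, 1768 only closed and 882 both kinds (20%). The median width was 476 bp for opened and 491 bp for closed regions, and 25 opened and 47 closed regions were at least 2 kb wide.

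The AP-1 word separated the 2 directions. An exact match to TGANTCA on either strand lay in the central 300 bases of 2358 opened regions (57.0%) and of 187 closed regions (4.43%). The share was 13.4% over all 41411 distinct regions and 7.81% over 32851 RefSeq promoters of the same length. The 41411 regions each passed in some contrast and include the opened ones, which held 2358 of their 5557 windows with a match. The share over all regions tested was not computed. Opened windows had a median GC content of 48.0% and closed windows 49.7%. The form TGACTCA, with its reverse complement TGAGTCA, was in 50% of opened and 2.39% of closed windows, and TGAATCA in 11.5% and 2.11%. Among all 8192 words of 7 letters counted with their reverse complements, TGACTCA had the largest difference between opened and closed windows, at 47.6 percentage points. The word that followed it, GAGTCAC, overlapped it by 6 letters and had a difference of 20.5 points. This search over all words was added after the AP-1 result had been seen. A match is a string of letters and does not show that a protein was bound there.

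The AP-1 share grew with the size of the opening. From the smallest to the largest quintile of change among opened regions it was 45.2%, 50.7%, 55.5%, 61.4% and 72.1%. The 5 quintiles of closed regions lay between 3.08% and 6.63%, all under the share over all distinct regions, which include the opened ones. Sedentary signal moved with this order, since its median was 301 normalised reads in the smallest and 84.9 in the largest quintile of opened regions. When opened regions were instead divided into quintiles of sedentary signal, the regions with a change at or above the median of their quintile held a match more often than the others in all 5 quintiles, for example 74.2% and 64.7% in the lowest and 54.6% and 45.4% in the highest.

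**Figure D2:**
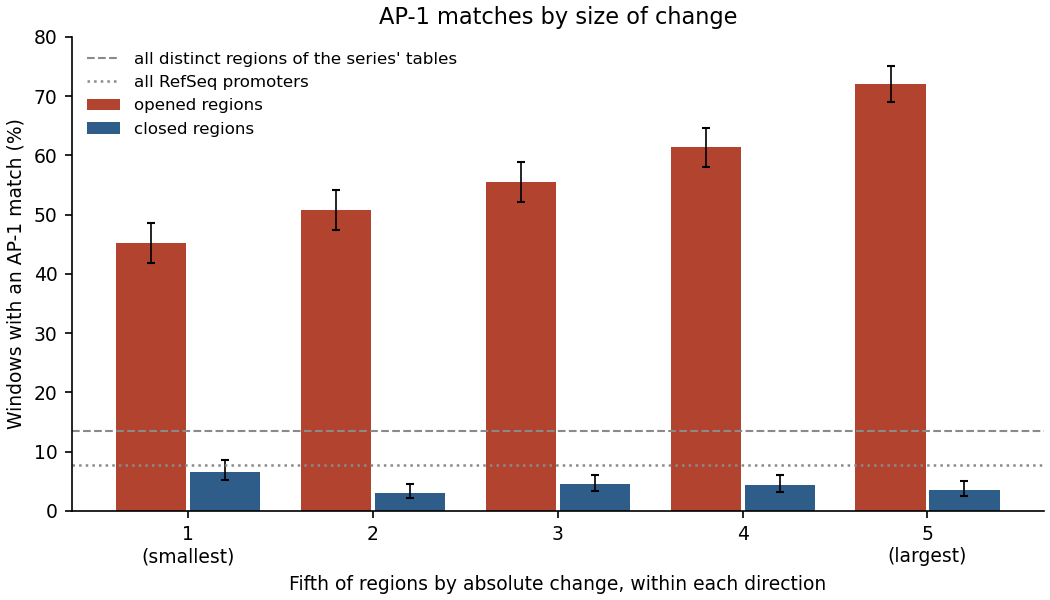
Bars give the percentage of 300-base windows with a TGANTCA match for quintiles of opened (red) and closed (blue) regions, ordered by absolute change, with 95% Wilson intervals that cover counting error only. The dashed line is the share over all distinct regions of the tables (13.4%) and the dotted line that over RefSeq promoters (7.81%). Opened regions climb from 45.2% to 72.1%, and closed regions stay at or below 6.63%.

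Opened regions with more copies of the word changed more. The median change was 1.07 over 1781 opened regions without a match, 1.23 over 1789 with a single match, 1.42 over 495 with 2, and 1.69 over 74 with 3 or more. Median sedentary signal fell in the same order, with 191, 160, 139 and 133 normalised reads. The number of matches and the level at rest were not separated here. The matches also sat near the middle of the opened regions. There were 12.0 matches per 100 opened regions in the 30 bases right of the centre and 11.9 in the 30 bases left of it, but 3.04 and 3.07 in the outermost bins. Closed regions showed between 0.24 and 0.62 matches per 100 regions in every bin. The word was also common near genes, with a match in 50.3% of 185 opened promoters, 56.3% of opened intronic and 58.8% of opened intergenic regions. Only 6 of 244 closed promoters held it (2.46%).

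**Figure D3:**
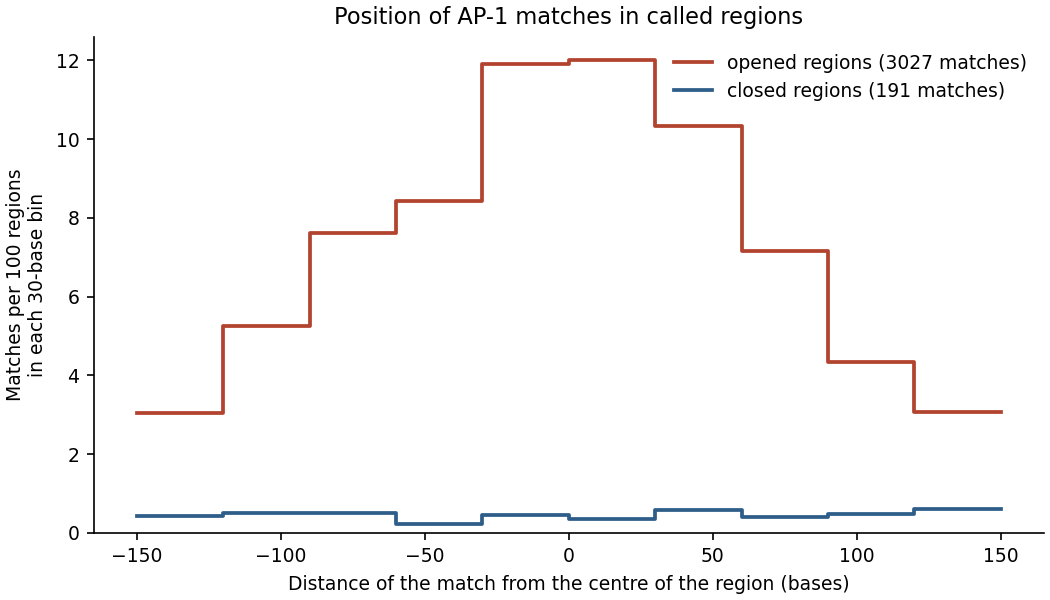
Matches to TGANTCA per 100 regions are drawn in 30-base bins by distance from the centre of the region, for opened (red, 3027 matches) and closed regions (blue, 191 matches). The opened curve peaks at the centre with 12.0 matches per 100 regions and falls to about 3 at the edges, and the closed curve is flat below 0.62.

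The same share in the other contrasts with calls, all of which used the same sedentary samples, was 37.1% over the 3276 regions opened in untrained muscle at 0 h (5.12% of those tested), 49.8% over 4462 opened in trained muscle at 0 h (6.98%), 60.7% over 1263 opened in trained muscle at 6 h (1.97%) and 40.7% over 27 opened in trained muscle at 72 h (0.0422%). Among closed regions it was 8.20%, 6.07%, 7.15% and 10.1% in these contrasts, in which 27.9%, 46.3%, 16.4% and 4.06% of the regions tested closed.

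Several other words differed less. The longer site of Nrf2 and Maf dimers, which contains TGACTCA, was in 1.67% of opened and 0.19% of closed windows. The palindrome of the glucocorticoid receptor was in 2.22% of opened and 0.28% of closed windows, beside 1.11% of all regions. TEAD sites (GGAATG), bound by partners of the growth regulator Yap, were in 20.4% of opened and 15.8% of closed windows. The MEF2 consensus was in 9.47% and 7.37%, and C/EBP sites (TTGCNNAA) in 14.7% and 11.1%.

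Closed windows held other words more often. CAGCTG was in 23.6% of opened and 30.8% of closed windows, beside 27.0% of all regions. CACGTG, the E-box of Bmal1 and Clock, was in 4.03% and 6.52%, and GTAAACA, bound by Foxo factors, in 3.94% and 7.25%, beside 4.20% of all regions. CAAGGTCA, found by the search over all words of 8 letters, was in 2.59% of opened and 5.85% of closed windows, beside 2.78% of all regions. The heat shock factor site and the serum response CArG box were about as frequent in both directions, with 0.46% and 0.38% for the first and 1.38% and 1.07% for the second. In all 24 motifs were searched.

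The regions that opened most among those of at least median signal lay at least 13227 bp from a start site. The region nearest Gatb, which encodes a subunit of a mitochondrial amidotransferase, reached 870.3 normalised reads in untrained muscle at 6 h and 61.5 in sedentary muscle, a change of 3.82. It lay 291676 bp upstream of the start, in an intron of a predicted gene, so the gene name is only a marker of position. The region of Ell2, a transcription elongation factor, changed by 3.80 (904 and 64.8 normalised reads in untrained 6 h and sedentary muscle). An intronic region of the lipid hydrolase gene Abhd2 followed with 3.72. One of the methionine sulfoxide reductase gene Msra had 589 normalised reads in untrained muscle at 6 h and 55.8 in sedentary muscle. Further regions fell to Gipc2 (3.70), Chi3l1 (3.62), Gna14 (3.30) and the deubiquitinase gene Usp28 (3.28).

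A region 18129 bp upstream of Lmcd1, a LIM protein that acts on calcineurin in striated muscle, rose by 3.37, with 1054 normalised reads in untrained muscle at 6 h and 102 in sedentary muscle. A Myc region stood 333550 bp downstream of the start of this growth-promoting transcription factor, and had 668 normalised reads in untrained muscle at 6 h and 69.5 in sedentary muscle (3.26). Of these 10 regions 7 had an AP-1 match in the central 300 bases. A lower signal threshold would place Olfml3, an extracellular matrix glycoprotein gene, at the top, where a distal region had 430.4 normalised reads in untrained muscle at 6 h and 17.9 in sedentary muscle (4.58).

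The 10 promoters that opened most belonged to genes of varied function. The promoter region of Psmd11, a subunit of the proteasome lid, changed by 3.16 (418 and 46.9 normalised reads in untrained 6 h and sedentary muscle). That of Atf3, a stress-induced factor of the AP-1 family, changed by 3.03, with 387 and 47.4 normalised reads. Atf3 had 3 further opened regions, with changes of 0.71 to 2.50, and an 8492 bp wide region that overlaps its gene body, named for the neighbour Garin4, had 1993 normalised reads in untrained muscle at 6 h and 810.4 in sedentary muscle.

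After Atf3 came Swi5, a partner in recombination repair, with 2.78, and then metabolic enzymes. Pgm2, an enzyme of sugar phosphate metabolism, opened by 2.64, Psat1, of serine synthesis, by 2.41, and Uck2, of pyrimidine salvage, by 2.34. Limch1, an activator of non-muscle myosin, stood at 2.28 and Myh9, a heavy chain of that myosin, at 2.23. The promoters of Myoz2, which binds calcineurin at the Z-disc, and Csrp3, the muscle LIM protein of the Z-disc, opened by 2.26 and 2.23. Myoz2 had 832 normalised reads in untrained muscle at 6 h and 174 in sedentary muscle, and Csrp3 had 748 and 160.

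The widest opened regions spanned muscle stress genes. A region of 9930 bp over Hspb8, a small heat shock protein of the chaperone-assisted autophagy complex, had 4961 normalised reads in untrained muscle at 6 h and 2882 in sedentary muscle (0.78). Another of 8819 bp in Xirp2, an actin-binding protein of the intercalated disc and the myotendinous junction, changed by 1.24, and one of 8624 bp in Lmcd1 by 1.22. Trib1, a pseudokinase that steers protein degradation, had most opened regions, 12 with none closed, followed by Lpp, a LIM protein of focal adhesions, with 10. Myc, Bach2, a repressor that shares DNA sites with AP-1 factors, and Plcb4, a phospholipase, had 9 each. Lpp also had 3 closed regions, and Myc and Bach2 had 2 each. The strongest Lpp region had 3682 normalised reads in untrained muscle at 6 h and 468 in sedentary muscle (2.98).

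The largest closing was at a region nearest a gene model that has no gene name (-2.12). The next was at a very wide region. It covered 32092 bp of Pfkfb3 (chr2:11472449-11504540), the kinase that makes the glycolytic activator fructose 2,6-bisphosphate, and had 10387 normalised reads in untrained muscle at 6 h and 42942 in sedentary muscle, a change of -2.05. All 6 called regions of Pfkfb3 closed, down to -0.57 in the least affected. The promoter of its relative Pfkfb2 opened by 1.99.

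The other regions with the largest closing among those of at least median signal were shorter. A region 9663 bp upstream of Wwp1, a ubiquitin ligase, had 136 normalised reads in untrained muscle at 6 h and 534 in sedentary muscle (-1.98). Regions at Cyp4f16, a fatty acid hydroxylase gene (the region overlaps Cyp4f17), at Neo1, a netrin receptor gene, and over a coding exon of Zbtb20, a transcriptional repressor, changed by -1.94, -1.92 and -1.91. The cAMP phosphodiesterase gene Pde4d held the region at -1.91 (223 and 837 normalised reads in untrained 6 h and sedentary muscle) and had most closed regions of all genes, 28, beside 3 opened ones. After it came Rora, a nuclear receptor of the clock, with 21 closed and 4 opened regions. Foxp1 had 14 closed and 3 opened, Foxn3 13 and 1, and Crim1 12 closed regions only. Ccnyl1, the cystine transporter gene Slc7a11, and the ubiquitin ligase subunit gene Fbxl4, each at a distal region, changed by -1.89, -1.88 and -1.86. None of the 10 regions with the largest closing at this signal, Pfkfb3 and the Ctxnd2 promoter among them, held an AP-1 match in the central 300 bases. Over its whole width the Pfkfb3 region held 6 matches and the Zbtb20 region 1.

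Among promoters, Ctxnd2 closed most, with 218 normalised reads in untrained muscle at 6 h and 793 in sedentary muscle (-1.86). Elmo2, an adaptor of Rac activation, followed with -1.59, then Smpx, a small protein of the costamere, with -1.53. Smpx also had 2 opened regions, up to 1.23, and another promoter region was among them. Vamp5, a vesicle fusion protein of muscle, changed by -1.37, and Colq, the collagen tail that anchors acetylcholinesterase at the synapse, by -1.36. Lrtm1, Enox1, Nhlrc4 and Enah, which extends actin filaments, lay between -1.53 and -1.28. Away from these promoters Enah had 4 opened regions, up to 2.61, and Lrtm1 had 4, up to 1.62. The region second in width, 14637 bp at Sphk2, also covered Dbp, an output factor of the clock, and had 15934 normalised reads in untrained muscle at 6 h and 32241 in sedentary muscle (-1.02). The third, named for Foxs1, lay over Mylk2, the kinase of skeletal myosin light chains, and changed by -0.81, and the fourth lay in Mylk4 (-0.69).

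**Figure D4:**
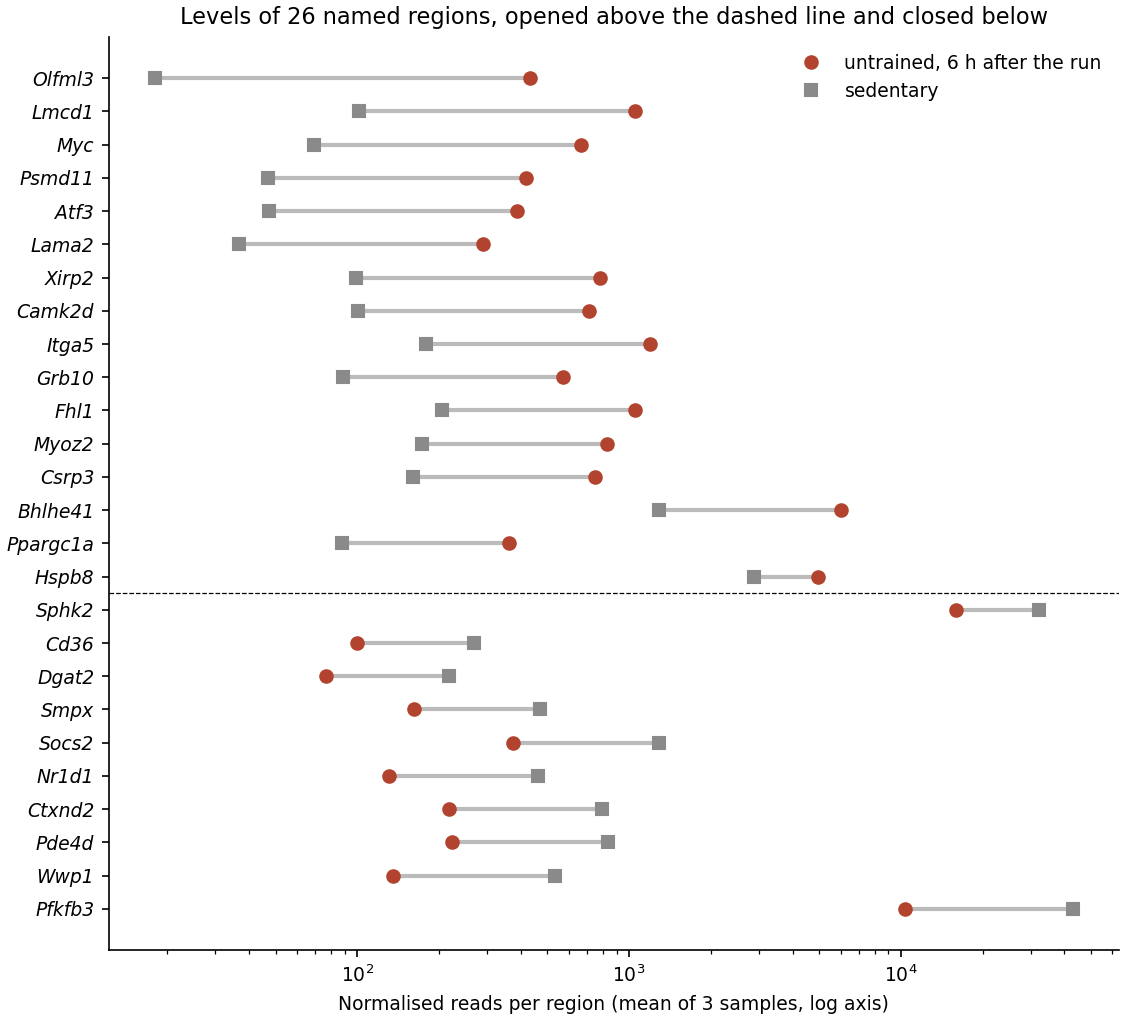
Mean normalised reads (log scale, 3 samples per group) in untrained muscle at 6 h (red circles) and sedentary muscle (grey squares) are drawn for 26 named regions. The 16 opened regions lie above the dashed line, from Olfml3 with 430.4 and 17.9 normalised reads to Hspb8 with 4961 and 2882, and the 10 closed regions below it, where Pfkfb3 has 10387 and 42942.

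The gene lists below were read beside the share over all called regions, of which 49.5% were opened, with a median change of -0.55 over both kinds. No list was tested against the rest. A gene can hold many regions, so a few genes can decide the share of a list.

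Genes that respond to strain, and those of the Z-disc, mostly opened. Their 31 genes had 44 opened and 9 closed regions (83.0% opened). Of the 44 opened regions 9 were promoters, beside 4.47% of all opened regions. An opened region was found at 19 of the genes, and the same share over all protein-coding genes was not computed. After Lmcd1, Xirp2 stood out with a region 22579 bp before its start, which had 780 normalised reads in untrained muscle at 6 h and 99.0 in sedentary muscle (2.98). Fhl1, a LIM protein that senses strain, had 4 opened regions, of which a 2312 bp one changed by 2.35. The promoter of Ankrd1, a titin-binding stress protein, had 1501 and 446 normalised reads in untrained 6 h and sedentary muscle (1.75). Of the opened regions on this list 36.4% had an AP-1 match, against 57.0% of all opened regions. Tcap, which caps titin at the Z-disc and is under clock control in muscle, had only a closed region, which lay over the neighbour Stard3, with 1624 normalised reads in untrained muscle at 6 h and 4811 in sedentary muscle (-1.57).

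Matrix and adhesion genes also leaned to opening, with 54 opened and 15 closed regions (78.3%). Itga5, the fibronectin receptor subunit, had 6 opened and no closed regions, the strongest with 1191 normalised reads in untrained muscle at 6 h and 178 in sedentary muscle (2.74). Lama2, the laminin of the muscle basement membrane, had 4 opened regions up to 2.99, Lamc1 had 5 up to 2.23, and Vcl, which links integrins to actin, had 4 up to 2.56. Itgb6 reached 2.61. Itgb5, Fbn1 and Lama5 had closed regions only.

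Chaperones and genes of the integrated stress and unfolded protein responses had 15 opened and 4 closed regions (78.9%). Chac1, a glutathione-degrading enzyme downstream of Atf4, led with 2.63 at a region inside Ino80, but also had 2 closed regions. Hsph1, a nucleotide exchange factor of Hsp70, opened by 2.29, Atf4, the central factor of the integrated stress response, by 1.67 at a region in Mief1, and Hspd1, the mitochondrial chaperonin, by 1.54 at a region in Mob4. All 3 regions of Bag3, a co-chaperone of Hspb8, opened. Only 26.7% of opened regions on this list had an AP-1 match.

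Immediate early and AP-1 genes had 42 opened and 21 closed regions (66.7%). Beside Myc and Atf3, the ERK phosphatase gene Dusp5 opened by 2.81 and Ier5, a regulator of heat shock factor, had 5 opened regions, the strongest with 783 normalised reads in untrained muscle at 6 h and 196 in sedentary muscle. The AP-1 subunit genes differed among themselves. Fosb had 2 opened regions (1.42 and 1.44), Jun had 2 opened and 2 closed ones, Fosl2 had 1 opened and 5 closed ones, and the only called region of Fos, 15306 bp downstream, closed by -0.75. None of these genes had a called promoter other than Atf3. Klf15, a glucocorticoid-induced metabolic factor, had 2 closed regions.

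**Figure D5:**
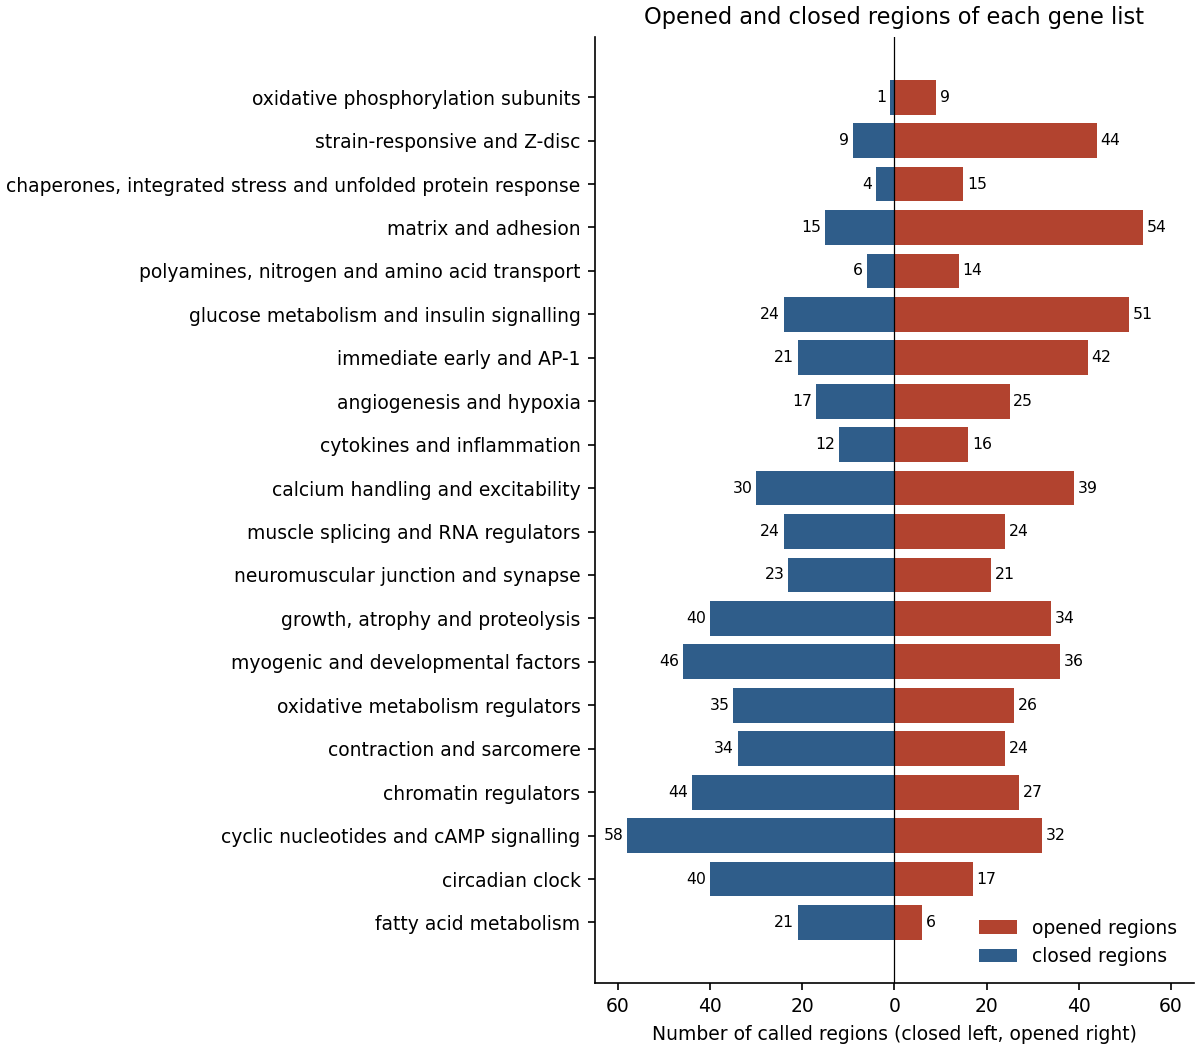
Bars count opened (right, red) and closed regions (left, blue) nearest to genes of each of 20 lists, ordered by the opened share. Oxidative phosphorylation subunits (9 opened and 1 closed) and strain-responsive and Z-disc genes (44 and 9) are at the top, and the circadian clock (17 and 40) and fatty acid metabolism (6 and 21) at the bottom.

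Circadian clock genes mostly closed, with 17 opened and 40 closed regions (29.8% opened), of which Rora alone had 21 closed. Rora had 4 opened regions as well. Nr1d1, which encodes Rev-erb alpha, had 3 closed regions, one with 131 normalised reads in untrained muscle at 6 h and 462 in sedentary muscle (-1.81). Per2 had a closed region upstream with 87.9 and 278 normalised reads (-1.66), and the output factors Tef and Hlf had closed regions only. The activators Bmal1 and Npas2 had 2 opened regions each, at 1.44 and 1.53 for Bmal1, including its promoter, and at 1.46 for both regions of Npas2. Bhlhe41, a repressor of the loop, had 5997 normalised reads in untrained muscle at 6 h and 1291 in sedentary muscle (2.22), and the strongest region of Nfil3, which opposes Dbp at its sites, changed by 2.29, although 5 of its 8 regions closed.

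Fatty acid metabolism had the lowest opened share, with 6 opened and 21 closed regions (22.2%). Cd36, a fatty acid transporter, had 5 closed regions, one at its promoter (-1.14), and at the most affected 99.4 normalised reads in untrained muscle at 6 h and 270 in sedentary muscle (-1.44). Dgat2, of triglyceride synthesis, changed by -1.50, and all 4 regions of Lpl, which releases fatty acids from lipoproteins, closed. Acsl1, which activates fatty acids, accounted for 4 of the 6 opened regions, up to 2.11, with 3 AP-1 matches in the strongest.

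Glucose metabolism and insulin signalling genes had 51 opened and 24 closed regions (68%). Grb10, an adaptor that dampens the insulin receptor, had 571 normalised reads in untrained muscle at 6 h and 88.3 in sedentary muscle (2.69). Insr opened at an intronic region by 2.05, Pik3ca at 4 regions up to 2.08, and Slc2a1, the basal glucose transporter, at 5 regions up to 2.09. Pik3r1, a regulatory subunit of the same kinase as Pik3ca, had 7 opened regions and 1 closed region, and Tbc1d1, a regulator of glucose transporter traffic, had 7 and 2. Ppp1r3c, which targets phosphatase to glycogen, had 5 opened regions.

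Regulators of oxidative metabolism had 26 opened and 35 closed regions (42.6%). Ppargc1a, the coactivator of mitochondrial biogenesis, opened at 2 distal regions, the stronger 298147 bp before its start with 361 and 88.1 normalised reads in untrained 6 h and sedentary muscle (2.03), and closed at 6 others. Nrip1, a corepressor of the same program, opened at 4 regions up to 2.53. Ppargc1b, Ppara and the AMP kinase genes Prkaa1 and Prkaa2 had closed regions only, while Esrrg had 5 opened and 4 closed. Genes of oxidative phosphorylation subunits had 9 opened regions and 1 closed region, led by Uqcrfs1 (2.59), Atp5f1c (1.69) and Cox5a (1.49). None was a promoter, and those of Atp5f1c and Cox6c lay inside Kin and Vps13b.

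Sarcomere genes were divided by gene, with 24 opened and 34 closed regions (41.4%). Titin (Ttn) had 10 closed regions, most of them inside the gene and all between -0.90 and -0.52, and cardiac actin (Actc1) had 5, of which 3 were at its promoter. Nebulin (Neb), the ruler of the thin filament, had 6 opened regions up to 2.04, Smyd1, a myosin-directed methyltransferase, had 2 up to 2.79, and Tmod1, which caps thin filaments, reached 2.14. Counted once per gene by the sum of its changes, 52.6% of these genes opened. The same share over all called genes was not computed.

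Calcium handling and excitability had 39 opened and 30 closed regions (56.5%). Camk2d, a kinase activated by calcium, had 5 opened regions, 3 of them at 2.78 to 2.81, the strongest with 710 normalised reads in untrained muscle at 6 h and 101 in sedentary muscle. Camk2b opened by 2.22 at a region inside Nudcd3. Of the release complex, Ryr3 opened by 2.56 at a region inside Tmco5b, and Trdn opened by 2.23. Trdn also had a closed region, and Ryr1 had only a closed one (-0.93). Rcan1, an inhibitor of calcineurin and its target, had 3 opened regions including its promoter, whereas Nfatc1 had 4 closed and no opened ones.

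Cyclic nucleotide and cAMP genes had 32 opened and 58 closed regions (35.6%), but Pde4d held 28 of the closed ones. Counted once per gene 57.9% opened, a share that was not computed over all called genes. The strongest region of the anchoring protein gene Akap6 opened by 2.91 and its 3 others closed, and Pde7b had a region at 2.45 beside 4 closed ones. Adcy9 reached 2.19 with 2 regions of each kind, and Pde10a 1.94 with 6 opened and 3 closed. Genes of growth, atrophy and proteolysis had 34 opened and 40 closed regions (45.9%). Rptor, the scaffold of mTORC1, had the largest opening (2.69, with 2 opened regions and 1 closed region). Other openings on the list were at Tgfb2 (2.11, with 2 and 5) and Runx1 (2.09, with 4 and 1). Acvr2a, a receptor for myostatin, had 5 closed and Igf1r 4 closed regions, with none opened at either.

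Myogenic and developmental factors had 36 opened and 46 closed regions (43.9%). Maf, Nfib and Nfia each had a strongly opened region, at 2.92, 2.65 and 2.47, yet Nfib also had 10, Maf 7 and Nfia 2 closed regions. The strongest Maf region lay 373407 bp from its start, inside Wwox, and that of Nfib 337370 bp from its start. Myog, which is induced in denervated fibres, had 3 opened regions. Chromatin regulators had 27 opened and 44 closed regions (38%), with Crebbp, a histone acetyltransferase, at 2.32 (896 and 179 normalised reads in untrained 6 h and sedentary muscle), Chd7 at 2.30 and Jarid2 at 1.96, although Chd7 had 3 opened and 4 closed regions and Jarid2 2 and 5. Hdac4, a deacetylase that represses Mef2 targets, had 10 closed and no opened regions. Of the 27 opened regions on this list 21 had an AP-1 match (77.8%).

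Neuromuscular junction and synapse genes had 21 opened and 23 closed regions (47.7%). The promoters of Chrna1 and Chrne, receptor subunits for acetylcholine, closed beside that of Colq, with 148 and 552 normalised reads in untrained muscle at 6 h and 295 and 995 in sedentary muscle, while Dok7, Sntb1, Ncam1 and the receptor kinase gene Musk opened at distal or intronic regions by 2.15, 1.99, 1.76 and 1.56. Musk also had 3 closed regions and Sntb1 had 1. Splicing regulators had 24 of each kind. The largest changes at Celf2, Rbfox2, Larp4b and Mbnl1 were openings of 2.32, 1.95, 1.87 and 1.58, but closed regions were the more frequent at Mbnl1 (3 opened and 10 closed), Celf2 (2 and 3) and Rbfox2 (2 and 3).

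Angiogenesis and hypoxia genes had 25 opened and 17 closed regions (59.5%). Cited2, a feedback inhibitor of Hif1a, opened by 2.75 at a region 687889 bp before its start, and Hif1a by 2.18 at a region inside Prkch. Cited2 had 5 opened and 4 closed regions, Hif1a 3 and 2, and Angpt1 2 closed regions only. Cytokine and inflammation genes had 16 opened and 12 closed regions (57.1%), with Irf2 at 2.88, Nfkb1 at 2.52 and Il1r1 at 1.78, and Socs2, a brake on growth hormone signalling, closed by -1.78. A list of polyamine, nitrogen and amino acid transport genes, which also holds other transporters, had 14 opened and 6 closed regions (70%). The zinc transporter gene Slc30a2 opened by 2.06, and the phosphate transporter gene Slc20a1 had a region at 2.02 and another at -1.37. Of the amino acid transporter genes, Slc38a4 had 2 opened regions, the stronger with 596 normalised reads in untrained muscle at 6 h and 171 in sedentary muscle, and Slc7a11, named above, had 3 closed regions.

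Some markers of other cell types had called regions. Of 34 such genes for endothelium and smooth muscle, fibro-adipogenic cells, immune cells, satellite cells, and glia and tenocytes, 10 had a called region, a single one each, 6 opened and 4 closed, and only 5 of these lay within 50 kb of the start site. The largest were at Myh11 (2.80, inside Cep20) and Cdh5 (2.45, 566263 bp away). The only promoter among them was that of Cd68, a macrophage marker, which opened by 0.82 (533 and 302 normalised reads in untrained 6 h and sedentary muscle). Their part in the results above was not tested. The share of all protein-coding genes with a called region was not computed, so none stands beside the 10 of 34. Of the myofibre markers, 12 of 14 had a promoter region in a table of the series. Among the markers of other cell types, Myh11, Tek, Dcn, Cd68, Pax7 and Mkx did so too. The myofibre list had 10 opened and 12 closed regions. Ttn held 10 of the closed and Neb 6 of the opened ones. Myh1 (1.95, inside Myh2), Casq1 (1.10) and Dmd (0.85) had an opened region each, Ryr1 a closed one (-0.93), and Pvalb both kinds (1.47 and -1.15).

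For regions listed in more than one table the group means can be set side by side, on the same scale. The Lmcd1 region had 292 normalised reads in untrained muscle at 0 h and 1054 at 6 h, 526 and 345 in trained muscle at 0 and 6 h, and 102 in sedentary muscle. The Atf3 promoter had 95.1 and 387 in untrained muscle at 0 and 6 h, 148 and 129 in trained muscle, and 47.4 in sedentary muscle. At Csrp3 the values were 329 and 748 in untrained muscle, 307 and 425 in trained muscle, and 160 in sedentary muscle. These 3 regions were thus highest in untrained muscle at 6 h. The strongest opened regions of Hif1a and Esrrg were instead highest in trained muscle at 0 h, with 2073 and 1315 normalised reads, beside 1483 and 548 in untrained muscle at 6 h and 327 and 161 in sedentary muscle. Hsph1 was highest in untrained muscle at 0 h, with 240.2 normalised reads, beside 124 at 6 h and 25.3 in sedentary muscle.

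The following 3 closed regions were lower in every exercised group for which they were listed than in sedentary muscle. The Nr1d1 region had 206 and 131 normalised reads in untrained muscle at 0 and 6 h, 203, 124 and 196 in trained muscle at 0, 6 and 72 h, and 462 in sedentary muscle. At Wwp1 the means were 100.3 and 136 in untrained muscle, 151 and 198 in trained muscle at 0 and 6 h, and 534 in sedentary muscle. The Pfkfb3 region had 17003 and 10387 in untrained muscle at 0 and 6 h, 4770 and 13796 in trained muscle, and 42942 in sedentary muscle. A region absent from another table did not pass the threshold there, and its level in that group is not given. The opened regions of Bhlhe41 and Lpp named above were listed in no other table with calls.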

How the data were processed

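Per the submitters' processing notes, the tools behind the deposited tables were Trimmomatic 0.39, Bowtie2 2.4.4 on GRCm39, Genrich 0.6.1 for accessible regions and DiffBind 3.4.11 for the comparison of groups. The authors deposited the mean of each group as a concentration (normalised reads of a region, averaged and on a log2 scale), with their own fold change, p-value and FDR for each region that passed an FDR of 0.05. The deposited fold change was not used. The deposited p-value and FDR served only to recover the number of regions tested and to apply a stricter FDR of 0.01. The 72 h table of untrained muscle listed no regions, and the tables of gained and lost regions repeat rows of the table used. Per-sample depth is unknown.

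The change was computed as the difference of the deposited log2 concentrations. Genes came from GENCODE M39 by the nearest protein-coding start site, because gene positions in the table lay on another build (4.07% of 5879 transcripts were within 1 kb of their GRCm39 start). Both namings gave the same symbol for 29.8% of regions. A region within 1 kb of a start site is a promoter. Sequences were read from GRCm39, and RefSeq promoters (GRCm38.p6) were used only for background shares of motifs, all searched on both strands. The functions were tested on simulated data. Python 3.11, pandas and pyfaidx were used.

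Named regions were, per direction, the 10 with the largest change among regions whose higher group mean was at least the median of all called regions (441 normalised reads), the 10 promoters with the largest change, the 4 widest regions and the 5 genes with most regions, and for each list the 4 members with the largest change, with 1 region per gene and no predicted gene models. Other genes named in the account of a list were chosen after their values were seen. Members and lists were chosen with earlier results of these data known. Some named regions and sequences that the rule selects are not reported here.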

Additional observations from a re-analysis of the deposited data

How the results depend on the processing

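No value could be computed without a single sample, and no paired analysis was possible because the tables hold group means only. At an FDR under 0.01 there were 3013 opened and 1932 closed regions, so closed calls fell by more than opened ones. With an absolute change of at least 1, 2710 opened and 1290 closed regions were left. The median change of opened regions was 1.14 with 8 normalised reads added to both means, 1.10 among regions with at least median signal and 1.37 at an FDR under 0.01. The median change of closed regions was -0.86, -0.85 and -1.04 under the same settings. The promoter shares of opened and closed regions were 10.1% and 12.6% within 3 kb, 3.72% and 4.76% by the centre of the region, 7.92% and 7.65% by the annotation of the deposited table, whose gene positions lie on another build, and 4.22% and 4.30% at an FDR under 0.01, so opened regions had the higher promoter share only with the deposited annotation. The AP-1 share was 66.5% of opened and 10.7% of closed regions over the whole region and 41.3% and 1.97% over 150 bases. The opened share over all pathway lists, 52.5%, was 57.0% with regions within 50 kb, 49.1% with the gene symbols of the deposited table, 58.9% at an FDR under 0.01 and 60.6% with each gene counted once.

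Of 96 shares of single lists under these alternatives, 75 stayed on the same side of an even split. The sarcomere share of 41.4% was 67.6% with the deposited symbols, 60% at an FDR under 0.01 and 52.6% with each gene counted once. Over all called regions 3013 opened and 1932 closed at an FDR under 0.01, so the opened share rose there too. Counting each gene once sums changes, which were larger for opened regions, and was not done over all called genes. The fatty acid share of 22.2% was 58.3% with the deposited symbols (12 regions). None of the changes of 142 named regions moved by 1.5 times or reversed with 8 reads added. Regions under the threshold were not analysed here, so a list's share describes called regions only.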
